A study of Mus musculus with 55 samples.

Results

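Dorsal hippocampal expression was compared between female mice killed in metestrus and female mice killed in estrus, taking both genotypes together. The comparison used 22 of the 55 libraries, each from 1 mouse: 9 from metestrus (4 WT and 5 KO) and 13 from estrus (7 WT and 6 KO). All mice were adults on a C57/BL6j background. KO mice carried a germline deletion of exon 4 of Cnih3, which encodes an AMPA receptor trafficking protein, and WT mice carried the intact gene. Ages ran from 13 to 18.57 weeks in WT metestrus, 16.29 to 20.29 weeks in WT estrus, 13.29 to 22.57 weeks in KO metestrus and 13 to 20.71 weeks in KO estrus. Stage was read from vaginal smears: mostly cornified epithelial cells in estrus, and leukocytes mixed with cornified and nucleated epithelial cells in metestrus. RNA came from the cleared supernatant of a detergent lysate, and gene counts were scaled to library size and put on a log scale (log2 CPM). The stage difference was the WT and the KO difference averaged with equal weight, so that genotype did not enter it. Values below are log2 differences, metestrus minus estrus, and 16168 genes were tested.

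The rodent estrous cycle passes from proestrus through estrus and metestrus to diestrus. Estradiol climbs to its peak in proestrus and ovulation follows, so that estrus and metestrus both fall after the peak. Progesterone from the new corpora lutea begins to climb in metestrus. The hippocampus carries estrogen and progesterone receptors, and its pyramidal neurons are known for cycle-linked changes in spines and synapses.

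The tissue label was borne out by its defining markers in the 22 libraries. Prox1, the homeobox factor of dentate granule cells, lay between 6.30 and 7.22 log2 CPM. Wfs1, which marks CA1 pyramidal cells, lay between 6.26 and 6.99, and Rgs14, a CA2 marker, between 7.28 and 8.33. RNA of neighbouring tissue was present in uneven amounts. Ttr, the main transcript of choroid plexus, ranged from 1.94 to 10.29 log2 CPM and pituitary Prl from 1.58 to 6.82. Depth ran from 29986468 to 63321180 assigned counts. Metestrus and estrus libraries did not differ detectably in total counts (adjusted p = 0.959), age (0.959), mitochondrial share (0.959) or detected genes (0.959), each by an exact two-sided permutation test within genotype, adjusted over the 4 measures. KO metestrus replicates 1 and 5 stood apart with the lowest share of nuclear long non-coding RNA (0.154% and 0.152% of counts), and a list median beyond 0.05 in either direction that moved by over 1.5 times without them is given both ways.

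No gene passed the test between metestrus and estrus (limma, FDR under 0.05). That was 0 of 16168 genes, or 0% called, with a smallest FDR of 0.316. edgeR and DESeq2 also called 0 genes. At an unadjusted p under 0.05, limma listed 1751 genes (10.8%), of which 749 were higher in metestrus (4.63%) and 1002 lower (6.2%). This list depended strongly on the fit. edgeR gave 350 genes (2.16%), DESeq2 383 (2.37%), and limma without sample quality weights 405 (2.5%). Leaving out 1 mouse at a time gave 944 to 2749 genes, with more genes higher in 11 of the 22 fits and more genes lower in the other 11. The count moved over 1.5 times without KO estrus replicate 2 (944), KO metestrus replicate 1 (1009), KO estrus replicate 6 (1120), WT metestrus replicate 3 (1127) or KO estrus replicate 5 (2749). Without both KO metestrus replicates 1 and 5 it was 642 genes (3.97%), 319 higher and 323 lower.

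The differences that the data allowed were small for most genes. The median absolute difference was 0.09 and its 90th percentile 0.24. The 95% interval of the difference lay within 1.5-fold in either direction for 14367 genes (88.9%) and within 2-fold for 15868 genes (98.1%). Without sample quality weights these counts were 13954 and 15786. No interval lay wholly beyond 1.5-fold, and 9 genes had an estimate beyond 2-fold. In the other stage pairs over both genotypes, which gave calls, 73.4% to 84.0% of intervals lay within 1.5-fold. Within 2-fold lay 92.8% to 97.1% of them. An interval within these bounds, here or in the lists below, therefore does not mean that a gene did not differ.

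Other pairs of stages gave calls in the same model. Metestrus and diestrus differed in 4555 genes (28.2%), 2807 higher in metestrus and 1748 lower. Metestrus and proestrus differed in 631 genes (3.9%). Estrus differed from proestrus in 1394 genes (8.62%) and from diestrus in 7726 genes (47.8%). These comparisons share libraries with one another and their group sizes differ, with 12 diestrus and 9 proestrus mice. Some diestrus and proestrus mice were younger than every metestrus and estrus mouse. These other pairs were tested only in the limma fit with sample quality weights. The median standard error was 0.092 for metestrus against estrus and 0.094 to 0.101 for the other pairs, so the estimates were about as precise.

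**Figure D1:**
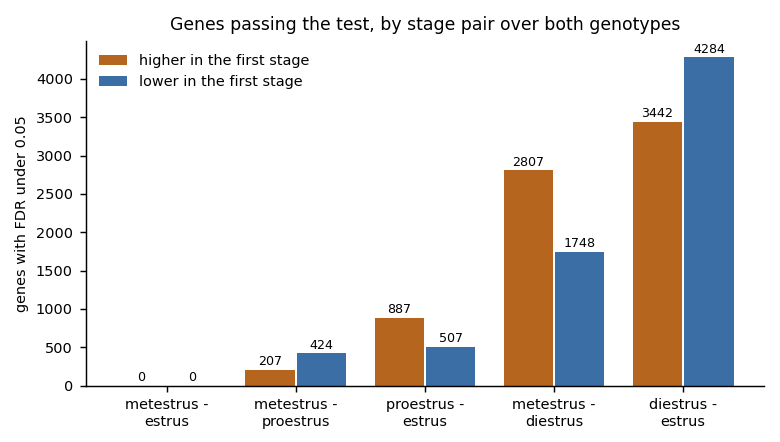
Number of genes with an FDR under 0.05 (vertical axis) for each pair of stages over both genotypes, split by direction. Metestrus minus estrus had 0 genes in either direction, while diestrus minus estrus had 3442 higher and 4284 lower.

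**Figure D2:**
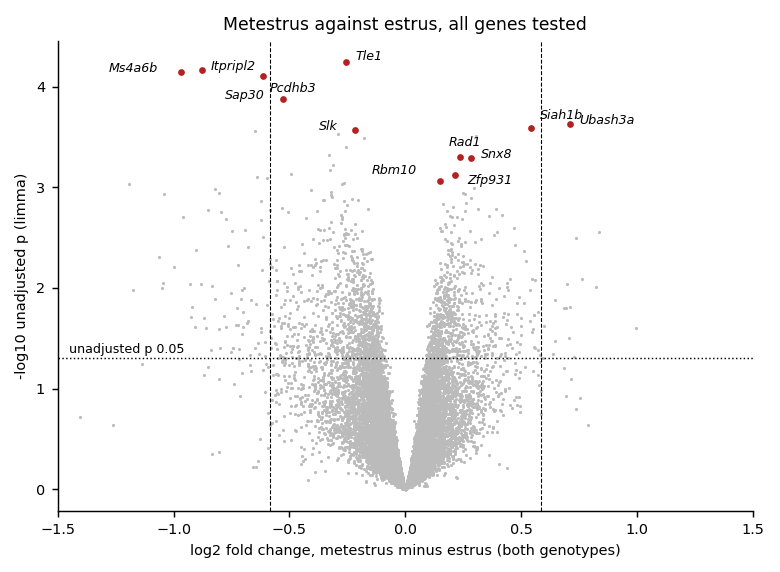
Log2 difference of metestrus minus estrus (horizontal axis) against the negative log10 of the unadjusted limma p (vertical axis) for the 16168 genes tested. Red points are the 6 genes of smallest p in each direction, dashed lines mark 1.5-fold, the dotted line marks an unadjusted p of 0.05, and no gene passed the FDR.

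The 6 genes of smallest p on the lower side in metestrus were Tle1, Itpripl2, Ms4a6b, Pcdhb3, Sap30 and Slk, and none of them passed the test. Tle1 (chromosome 4, 72117142 to 72200919, GRCm38) encodes a Groucho-family corepressor of transcription. In metestrus it stood at 5.73, 5.63, 5.53 and 5.70 log2 CPM in WT mice and at 5.51, 5.43, 5.46, 5.50 and 5.57 in KO mice. In estrus the lowest, median and highest values were 5.72, 5.80 and 6.00 in WT and 5.65, 5.82 and 6.20 in KO. All KO metestrus mice lay below all KO estrus mice, whereas in WT only the highest metestrus mouse reached into the estrus range. Tle1 was picked for its small p in these mice, and how many of all genes separated in this way was not counted. The difference was -0.25 (SE 0.06, 95% interval -0.37 to -0.14, limma FDR = 0.316).

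Sap30, a subunit of the Sin3 histone deacetylase corepressor complex, had a difference of -0.53 (SE 0.13, limma FDR = 0.427). Its WT metestrus values were 1.08, 1.14, 0.32 and 0.71 log2 CPM against a WT estrus range of 0.94 to 1.53, and its KO metestrus values were 0.33, 0.37, 1.06, 0.74 and -0.10 against 0.63 to 1.34. The stages overlapped in both genotypes. Without KO metestrus replicates 1 and 5 the difference was -0.38. Slk, a STE20-like kinase that acts on the cytoskeleton, differed by -0.22 (SE 0.06, limma FDR = 0.428), with WT metestrus at 5.67 to 5.91 and WT estrus at 5.72 to 6.10 log2 CPM.

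Ms4a6b, a membrane-spanning protein of immune cells, was a low-count gene, with 14 to 100 counts per library. WT metestrus mice had -0.87, -1.73, -1.52 and -0.61 log2 CPM, against -0.96, 0.23 and 1.08 as the lowest, median and highest of WT estrus. KO metestrus mice had 0.29, 0.33, 0.45, -0.80 and -1.36, against -0.18, 0.31 and 0.46 in KO estrus. The WT difference was -1.46 and the KO difference -0.47, and over both genotypes it was -0.97 (SE 0.22, limma FDR = 0.316). The low KO values were those of replicates 4 and 5. Itpripl2 (28 to 197 counts) differed by -0.88 (SE 0.20, limma FDR = 0.316), with WT metestrus at -0.34 to 1.19 and WT estrus at -0.00 to 1.72 log2 CPM. Pcdhb3, a clustered protocadherin of the neuronal surface, differed by -0.62 (SE 0.14, limma FDR = 0.316). Its WT metestrus mice spanned 1.61 to 1.96 and WT estrus mice 1.80 to 2.49, and its KO metestrus mice spanned 0.78 to 1.71 and KO estrus mice 1.40 to 2.57. Ms4a6b and Pcdhb3 each belong to a family of similar paralogs. Only uniquely aligned reads were counted, so reads that match several members would be left out.

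On the higher side the 6 genes of smallest p were Ubash3a, Siah1b, Rad1, Snx8, Zfp931 and Rbm10, again with none past the test. Ubash3a, a suppressor of T cell receptor signalling, had 1.61, 1.36, 0.86 and 1.24 log2 CPM in WT metestrus and 1.57, -0.04, 1.11, 1.53 and 1.20 in KO metestrus. Its lowest, median and highest estrus values were -0.06, 0.36 and 1.34 in WT and -0.36, 0.54 and 1.51 in KO. The groups overlapped, and KO metestrus replicate 2 sat among the low estrus mice. The difference was 0.71 (SE 0.18, limma FDR = 0.428).

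Siah1b, a ubiquitin ligase with the close paralog Siah1a, had 2.88, 2.76, 2.87 and 3.01 log2 CPM in WT metestrus against 1.77 to 2.82 in WT estrus. In KO mice metestrus spanned 2.35 to 3.30 and estrus 1.65 to 2.99. The difference was 0.54 (SE 0.14, limma FDR = 0.428). WT mice overlapped in 1 estrus mouse, whereas KO mice overlapped widely.

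Rad1, of the DNA damage checkpoint clamp, differed by 0.24 (SE 0.06, limma FDR = 0.428) and was 0.15 without KO metestrus replicates 1 and 5. The endosomal sorting nexin Snx8 differed by 0.28 (SE 0.08, limma FDR = 0.428). The zinc finger gene Zfp931 differed by 0.21 (SE 0.06), and the splicing regulator Rbm10 by 0.15 (SE 0.04). Rbm10 showed the tightest groups, with 5.89 to 6.04 log2 CPM in WT metestrus and 5.77 to 5.92 in WT estrus. In the KO its metestrus mice stood at 5.99 to 6.07 apart from replicate 2 at 5.72, and estrus mice at 5.66 to 5.94. In all 37 alternative fits of each of these 12 genes the sign of the difference was kept. The genes were chosen for small p and the fits reuse the same mice, so this adds no separate support.

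**Figure D3:**
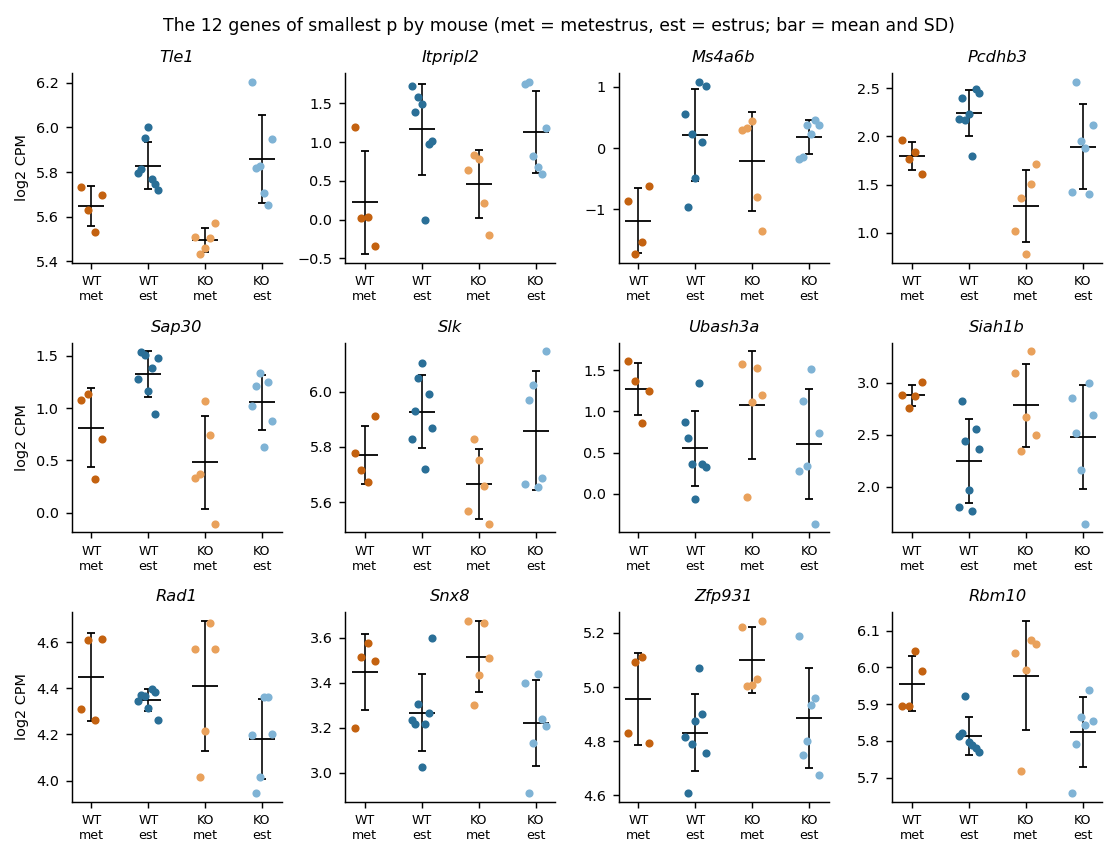
Log2 CPM (vertical axes) of the 12 genes of smallest p in each of the 22 mice, 1 point per mouse, with the mean and SD of each group. Metestrus and estrus mice overlapped in every gene in WT, and in every gene but Tle1 in KO. The genes were picked by p in these mice, and the share of all genes without overlap was not counted.

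The same genes were placed across the rest of the cycle by the other comparisons of this model, which share the estrus or the metestrus mice. The genes were picked for small p in those shared mice. The FDRs in this paragraph are therefore tilted towards a call and add no separate support. Snx8 was 0.42 higher in diestrus than in estrus (limma FDR = 1.6e-05) and 0.41 higher in proestrus (FDR = 0.00077). Pcdhb3 was lower in diestrus than in estrus, with a log2 difference of -1.03 (limma FDR = 1.03e-06), and Tle1 differed there by -0.29 (limma FDR = 9.26e-05). Siah1b differed by 0.65 between proestrus and estrus (FDR = 0.0029) and by 0.08 between diestrus and estrus (FDR = 0.67). Itpripl2 and Ms4a6b passed in neither comparison with estrus (FDR from 0.269 to 0.75). Metestrus was lower than diestrus for both, by log2 differences of -0.64 (limma FDR = 0.0245) and -0.70 (limma FDR = 0.0263), and lower than proestrus for Itpripl2 at -0.76 (limma FDR = 0.0425).

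Receptors for the ovarian steroids gave no call. Of 13 receptors and cofactors fixed as a list, 12 were expressed above the filter and 0 passed. Their median difference was -0.06 beside -0.00 for all genes. At an unadjusted p under 0.05, 0 were higher and 2 lower, beside 4.63% and 6.2% of all genes. Without KO metestrus replicates 1 and 5, 0 of the 12 were at that level. Esr1, estrogen receptor alpha, differed by 0.25 (SE 0.17, 95% interval -0.09 to 0.59). Its interval alone of the 12 reached beyond 1.5-fold. Pgr, the progesterone receptor and an estrogen target, differed by 0.05 (95% interval -0.10 to 0.19). Esr2, estrogen receptor beta, was under the filter, with 74 counts over the 22 libraries. The members of smallest p were Nrip1, a nuclear receptor corepressor, at -0.12 (SE 0.05), and Pgrmc2, a membrane progesterone receptor component, at -0.16 (SE 0.08).

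Genes that estradiol is known to induce in other tissues showed as little. Of 12 listed, 11 were tested and 0 passed, with a median of -0.09. At an unadjusted p under 0.05, 1 gene was lower, beside 6.2% of all genes. Rara, a retinoic acid receptor, differed by 0.21 (SE 0.12) and Nrip1 as above. Of 16 genes of neurosteroid synthesis, 11 were tested and 0 passed. The largest of them by p were Hsd17b4, a peroxisomal enzyme of steroid and fatty acid oxidation, at 0.17 (SE 0.07), and Fdxr, which passes electrons to mitochondrial steroidogenic enzymes, at 0.16 (SE 0.08). All 11 intervals lay within 1.5-fold. Cyp19a1, the aromatase that makes estradiol, was under the filter, with 90 counts over the 22 libraries.

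Subunits of the ionotropic glutamate and GABA receptors stood mostly a little below 0, and none passed. All 6 NMDA receptor subunits had negative estimates, with a median of -0.20. Over all genes tested, 8153 of 16168 estimates were negative, the share to set beside this list and those below. At an unadjusted p under 0.05, 2 of the 6 were lower, beside 6.2% of all genes. Without KO metestrus replicates 1 and 5, 0 of the 6 were, beside 323 of all 16168 genes. For Grin2b, the subunit of slow NMDA receptors, WT metestrus mice had 8.68, 8.27, 8.46 and 8.46 log2 CPM and KO metestrus mice 8.15, 8.40, 8.40, 8.23 and 8.09. The estrus mice spanned 8.41 to 8.73 around a median of 8.65 in WT, and 8.03 to 8.88 around 8.47 in KO. The stages overlapped in both genotypes, with a difference of -0.23 (SE 0.08, limma FDR = 0.428). Grin3a, a subunit that lowers calcium entry, differed by -0.22 (SE 0.09, limma FDR = 0.433). The obligatory subunit Grin1 differed by -0.19 (95% interval -0.46 to 0.07).

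Of 12 GABA-A receptor subunits tested, 10 had negative estimates, with a median of -0.06, and 4 were lower at an unadjusted p under 0.05, beside 6.2% of all genes. Gabrg3 differed by -0.30 (SE 0.10, limma FDR = 0.428) and Gabrb1 by -0.18 (SE 0.06, limma FDR = 0.428). Without KO metestrus replicates 1 and 5, 1 of the 12 was lower at that level, and without quality weights 2 were. Over all 16168 genes, 323 and 210 were lower in those fits. Gabrd, the delta subunit of extrasynaptic receptors that neurosteroids act on, differed by -0.01 (95% interval -0.18 to 0.15).

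Among the 16 AMPA receptor subunits and auxiliary proteins, 15 estimates were negative, with a median of -0.11, and all 16 intervals lay within 1.5-fold. The pore subunits Gria1 and Gria2 differed by -0.11 (SE 0.07) and -0.10 (SE 0.09). The auxiliary proteins Gsg1l and Shisa7, which dampen or shape AMPA receptor currents, had the smallest p, at -0.27 (SE 0.11) and -0.23 (SE 0.10). Cnih3, the gene targeted in the KO, was measured in all 22 libraries at 986 to 2854 counts, since gene counts include the exons left in place and so do not check the deletion. It averaged 5.34 ± 0.28 log2 CPM in WT metestrus (SD, n = 4), 5.39 ± 0.23 in WT estrus (n = 7), 5.01 ± 0.27 in KO metestrus (n = 5) and 5.00 ± 0.27 in KO estrus (n = 6). In the other groups its means were 5.07 in WT diestrus, 5.36 in WT proestrus, 5.42 in WT males, 4.79 in KO diestrus, 5.10 in KO proestrus and 5.10 in KO males. Its stage difference was -0.07 (95% interval -0.30 to 0.16).

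**Figure D4:**
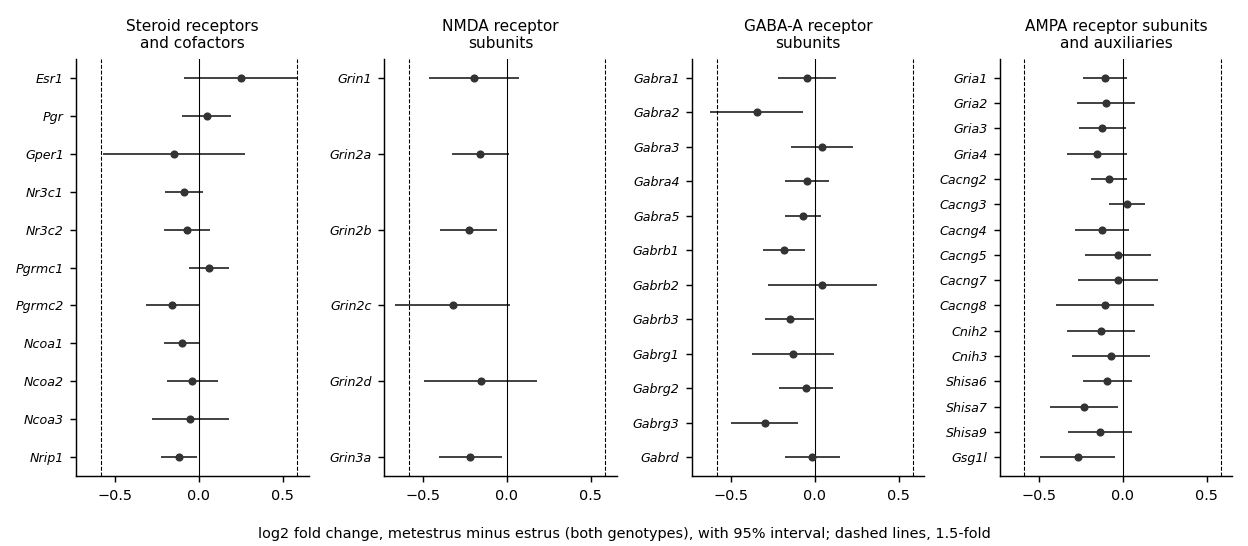
Log2 difference of metestrus minus estrus with its 95% interval (horizontal axis) for members of 4 lists, 1 row per gene. Dashed lines mark 1.5-fold, and 42 of the 45 intervals lay between them, those of Esr1, Grin2c and Gabra2 being the exceptions.

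Potassium channel genes had estimates mostly below 0. Of 73 tested, 52 had negative estimates with a median of -0.12, and 17 were lower and 1 higher at an unadjusted p under 0.05, beside 6.2% and 4.63% of all genes, although none passed the FDR. Kcnk3, a leak channel that sets the resting potential, differed by -0.31 (SE 0.10, limma FDR = 0.428), and Kcnj10, the inward rectifier of astrocytes, by -0.23 (SE 0.08, limma FDR = 0.428). The count lower was 3 without quality weights, 3 in edgeR, and 6 without KO metestrus replicates 1 and 5. Over all 16168 genes the count lower also fell, to 210, 208 and 323 in those fits. Clustered protocadherins, which give neurons their surface identity, had a median of -0.06 over 46 genes, with 3 lower and 1 higher at that level, Pcdhb10 being second to Pcdhb3 at -0.40 (SE 0.18).

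Other neuronal lists held as few. Postsynaptic scaffolds and CaMKII had a median of -0.06 over 19 genes, and -0.02 without KO metestrus replicates 1 and 5, led by the scaffold Dlg3 at -0.16 (SE 0.08) and the kinase Camk2g at 0.10 (SE 0.05). Of 6 neurotrophin genes, the receptors Ntrk3 and Ntrk2 differed by -0.18 (SE 0.07) and -0.14 (SE 0.06). Immediate early genes, which report recent neuronal activity, had a median of -0.08 over 17 genes, with the phosphatase Dusp1 at -0.32 (SE 0.13) and the transcription factor Egr3 at -0.11 (SE 0.07). Clock genes had a median of 0.01 over 19 genes and 0 at an unadjusted p under 0.05, led by Bhlhe40 at 0.17 (SE 0.09) and Dbp at 0.16 (SE 0.10), and all 19 intervals lay within 1.5-fold. Glucocorticoid-responsive genes had a median of -0.06 over 16 genes with 0 at that level, led by Klf9 at -0.08 (SE 0.04) and Hif3a at -0.32 (SE 0.19).

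A few metabolic lists stood slightly above 0. Of 37 proteasome subunits 2 had negative estimates, with a median of 0.08 and 4 higher at an unadjusted p under 0.05, among them Psmd5 at 0.18 (SE 0.07) and Psmd10 at 0.13 (SE 0.05). The median was 0.05 without quality weights, with 0 genes at that level, and 0.04 without KO metestrus replicates 1 and 5, with 1 gene. Over all 16168 genes, 195 and 319 were higher in those fits. Of 20 cholesterol synthesis genes 4 had negative estimates, with a median of 0.07 (0.04 without those 2 mice). At an unadjusted p under 0.05, 3 were higher, beside 4.63% of all genes, and the mevalonate pathway enzymes Mvd and Mvk differed by 0.28 (SE 0.10) and 0.18 (SE 0.07). Nuclear respiratory chain genes had a median of 0.00 over 94 genes, with Atp5b at 0.12 (SE 0.06) and Ndufa10 at 0.13 (SE 0.07). Cytosolic ribosomal protein genes had a median of -0.03 over 80 genes, 0 of them at an unadjusted p under 0.05, with Rps2 at 0.43 (SE 0.23) and Rpl13a at 0.09 (SE 0.08).

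Stress and immune lists were likewise without a call. Heat shock genes had a median of 0.06 over 10 genes, and 0.01 without KO metestrus replicates 1 and 5, with the co-chaperone Dnajb1 at 0.15 (SE 0.06) and the inducible Hspa1b at -0.29 (SE 0.13). Atf4 target genes had a median of 0.04 over 14, with Chac1, which degrades glutathione, at 0.36 (SE 0.11) and the cystine carrier Slc7a11 at -0.30 (SE 0.15). Endoplasmic reticulum chaperones had a median of 0.03 over 15, led by Sdf2l1 at 0.30 (SE 0.16) and Pdia3 at 0.29 (SE 0.16). Interferon and antigen presentation genes had a median of -0.09 over 14, with B2m, the light chain of MHC class I, at -0.18 (SE 0.08) and Stat2 at 0.12 (SE 0.08). Splicing factors had a median of -0.03 over 14, with Srsf6 at -0.24 (SE 0.09) and Ddx5 at -0.10 (SE 0.04). Mitochondrially encoded mRNAs had a median of -0.02 over 13, and -0.12 without those 2 mice, with mt-Nd4l at 0.42 (SE 0.27) and mt-Nd3 at 0.45 (SE 0.31).

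Markers of neurons and glia gave no call. Fewer cells of a type and less RNA per cell cannot be told apart in these bulk samples. Mature oligodendrocyte and myelin genes had a median of 0.02 over 15 genes, with 0 at an unadjusted p under 0.05 and all 15 intervals within 1.5-fold, Cnp and Mbp standing at 0.17 (SE 0.08) and 0.09 (SE 0.09). Oligodendrocyte precursor genes had a median of -0.14 over 10, with Olig1 at -0.20 (SE 0.09) and Enpp6 at -0.22 (SE 0.14). The medians were -0.00 for astrocytes, led by Aldh1l1 at 0.13 (SE 0.10) and Aqp4 at -0.11 (SE 0.10), and 0.03 for microglia, led by Cx3cr1 at -0.14 (SE 0.09) and P2ry12 at 0.10 (SE 0.09). Interneuron genes had a median of -0.01, with Pvalb at 0.11 (SE 0.07) and Gad1 at 0.09 (SE 0.06).

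Dentate granule cell genes had a median of -0.12, with Prox1 at -0.13 (SE 0.07) and Dsp at -0.12 (SE 0.09). CA1 genes had a median of -0.10 (Man1a at -0.17, SE 0.09, and Fibcd1 at -0.09, SE 0.09), CA2 genes -0.04 and CA3 genes 0.04 (Bok at 0.24, SE 0.13, and Iyd at 0.03, SE 0.09). Avpr1b, the vasopressin receptor of CA2, differed by -0.62 (SE 0.27, limma FDR = 0.429), and its neighbour in that list, Rgs14, by 0.17 (SE 0.09). Avpr1b had 22 to 84 counts per library, and metestrus and estrus mice overlapped in both genotypes.

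Transcripts of adjoining tissue varied widely between mice within a stage. Summed over its 9 genes, choroid plexus ran from 27.4 to 82.2 CPM in WT metestrus, 20.8 to 119 in WT estrus, 35.2 to 1375 in KO metestrus and 33.1 to 1329 in KO estrus. Its median difference was -0.39, and -0.06 without KO metestrus replicates 1 and 5, with 1 of 9 intervals within 2-fold, Prlr at -0.56 (SE 0.44) and Clic6 at -0.59 (SE 0.68). Of 7 pituitary hormone genes 3 were tested. Pomc differed by -0.57 (SE 0.37) and Prl by -0.54 (SE 0.51), and the sign of Prl turned in edgeR to 0.46. Thalamic genes had a median of -0.05, with Prkcd at 0.18 (SE 0.12) and Rora at -0.07 (SE 0.05). Meningeal fibroblast genes had a median of -0.19, and -0.08 without those 2 mice, with Col1a2 at -0.41 (SE 0.32) and Slc6a13 at -0.31 (SE 0.29). The intervals were wide, from -1.57 to 0.48 for Prl and from -1.95 to 0.77 for Clic6.

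Taken separately, WT mice also gave 0 calls (limma, 0%) and KO mice 0 (0%), with 705 (4.36%) and 1367 (8.45%) genes at an unadjusted p under 0.05. In WT, edgeR listed 195 and DESeq2 205 genes at that level, in KO 344 and 369, and neither called a gene by FDR. Leaving out 1 mouse gave 522 to 1328 genes in WT and 605 to 2469 in KO. Without KO metestrus replicates 1 and 5 the KO count was 325. The test of whether the stage difference differed between genotypes likewise called 0 of 16168 genes (0%), with 533 (3.3%) at an unadjusted p under 0.05, 183 in edgeR and 192 in DESeq2.

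The genes of smallest p in that test of the difference all had an FDR of 1.00. Gm15927, a processed transcript, was higher in WT metestrus by 1.14 and stood at -0.51 in KO. In WT metestrus it had 0.78, 0.10, 0.93 and 1.08 log2 CPM against -1.42 to 0.79 in estrus, and in KO -0.41 to 0.83 against -0.05 to 0.98. The TEC gene models Gm43316 and Gm37728 stood at 0.85 and 0.61 in WT and -2.26 and -1.46 in KO. On the other side were the axonemal dynein Dnah8 (-0.70 in WT, 1.16 in KO), the TEC model Gm42690 (-0.68 and 0.80) and Alas2, the first enzyme of heme synthesis in red cells (-0.73 and 0.63). Dnah8 did not overlap between stages in WT, with metestrus at -0.87 to -0.26 and estrus at -0.16 to 0.60, while in KO its lowest estrus mouse stood at -3.09. It too was picked by p in these mice, and the share of all genes without overlap was not counted.

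Blood transcripts had estimates of opposite sign in WT and KO mice. All 5 blood genes, the adult globins and Alas2, had lower estimates in WT metestrus, with a median of -0.67, and all 5 had higher estimates in KO metestrus, with a median of 0.48. Each of the 5 was at an unadjusted p under 0.05 in WT and in the interaction, beside 4.36% and 3.3% of all genes. In KO 1 of the 5 was at that level, beside 8.45% of all genes. None was at an FDR under 0.05. The 5 are all red cell transcripts measured in the same mice, so they are not separate results. The interaction p values ran from 0.000819 for Alas2 to 0.0032 for Hbb-bs (limma). For Hba-a1 the WT metestrus mice had 6.22, 5.91, 5.30 and 6.43 log2 CPM and the WT estrus mice 5.96 to 8.15. The KO metestrus mice had 6.09, 6.88, 6.64, 6.83 and 6.91 and the KO estrus mice 5.34 to 6.45. WT estrus replicate 4 was the highest of all, and without it the WT median was -0.45 with 3 of 5 genes at that level, against 2 of 5 without WT metestrus replicate 3. Over both genotypes the blood genes had a median of -0.09, and -0.04 without KO metestrus replicates 1 and 5, with Hbb-bt at -0.18 (SE 0.20).

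Nuclear RNA had negative estimates in KO mice, which were smaller without KO metestrus replicates 1 and 5. The 9 nuclear long non-coding RNAs had a median difference of 0.03 in WT and -0.59 in KO. Over both genotypes it was -0.29, with Kcnq1ot1 at -0.39 (SE 0.18, limma FDR = 0.455) and Malat1 at -0.38 (SE 0.22, limma FDR = 0.497). Their summed share was 0.311% to 0.358% of counts in WT metestrus and 0.28% to 0.412% in WT estrus. In KO metestrus replicates 1 to 5 it was 0.154%, 0.344%, 0.254%, 0.349% and 0.152%, and in KO estrus 0.245% to 0.384%. Gene models awaiting experimental support (the annotation class TEC) were 306 of the genes tested, of which 78 were lower and 0 higher at an unadjusted p under 0.05, beside 6.2% and 4.63% of all genes. Their median was -0.31, from -0.05 in WT and -0.55 in KO. Without KO metestrus replicates 1 and 5 the TEC median over both genotypes was -0.13, and the nuclear RNA median was -0.13. Within KO mice the medians in that fit were -0.23 for TEC and -0.18 for nuclear RNA. In that fit 17 of the 306 TEC models were lower over both genotypes at an unadjusted p under 0.05, beside 323 of all 16168 genes.

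Endothelial and collagen genes had lower medians of the stage difference in KO than in WT mice. The 5 endothelial genes had a median of -0.02 in WT and -0.55 in KO, and -0.28 over both, with the VEGF receptor Flt1 at -0.44 (SE 0.20, limma FDR = 0.447) and the adhesion protein Pecam1 at -0.40 (SE 0.21). Averaged over the 5 genes, KO metestrus replicates 1 to 5 had 1.48, 2.57, 1.40, 2.06 and 1.16 log2 CPM, against 2.06 to 2.72 in KO estrus. Replicates 1, 3 and 5 lay below every KO estrus mouse, while WT metestrus (2.06 to 2.87) lay inside the WT estrus range (1.27 to 2.92). Without KO metestrus replicates 1 and 5 the median over both genotypes was -0.25 and the KO median -0.48. The 19 collagen genes had a median of -0.01 in WT, -0.34 in KO and -0.19 over both, with Col19a1 at -0.38 (SE 0.14, limma FDR = 0.428) and Col11a1 at -0.42 (SE 0.22), and a median of -0.20 without those 2 mice. The part of nuclear RNA content in other differences was not tested.

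**Figure D5:**
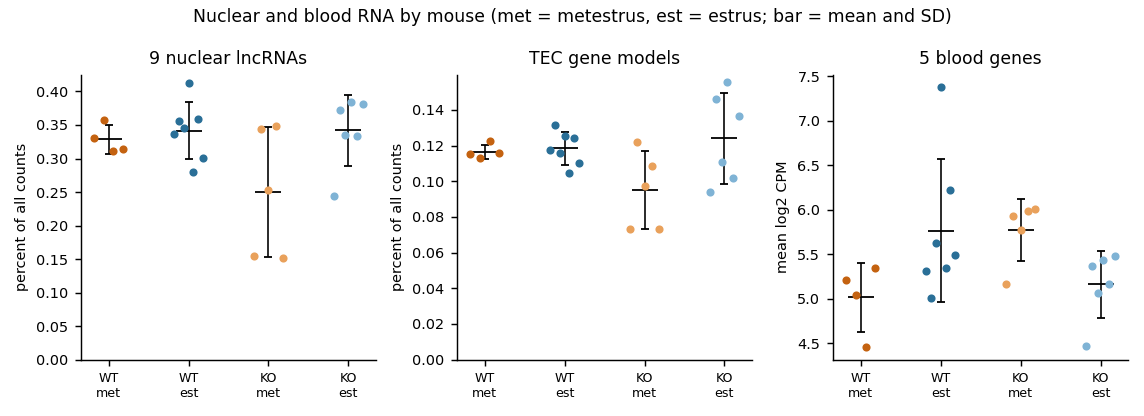
Share of all counts in 9 nuclear long non-coding RNAs and in TEC gene models (percent), and mean log2 CPM of 5 blood genes, 1 point per mouse with the mean and SD of each group. KO metestrus replicates 1 and 5 sit at 0.154% and 0.152% nuclear RNA, and WT estrus replicate 4 has the highest blood genes.

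One planned subset gave calls. Restricting to mice of 14 weeks or more left 6 of 9 metestrus mice (3 WT and 3 KO) and 12 of 13 estrus mice. There limma called 230 of the 16168 genes, 94 higher and 136 lower in metestrus. Their median absolute difference was 0.30, against 0.21 in all mice, of which these mice are a part. Rad1 stood at 0.33 (limma FDR = 0.0381), Itpripl2 at -1.07 (FDR = 0.0381), Ms4a6b at -1.20 (FDR = 0.0381) and Grin2b at -0.30 (FDR = 0.0405). All 12 genes of smallest p passed. They were chosen for small p in data that include these same mice, so this is no separate support. The 3 KO metestrus mice kept were replicates 1, 4 and 5. In the same mice edgeR called 0 genes, as did limma without quality weights. Limma without KO metestrus replicates 1 and 5 also called 0, but that left 1 KO metestrus mouse, assumed to vary like the other groups, and the median absolute difference of the 230 genes was then 0.27. With age as a covariate in all mice 0 genes were called. Leaving out only the 4 mice under 14 weeks among the 22, and keeping all other groups, gave 28 of the 16168 genes, 8 higher and 20 lower. That fit was not planned and was added after seeing the data.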

How the data were processed

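Poly-A RNA of 55 mouse dorsal hippocampi was sequenced. The authors aligned reads to GRCm38 with STAR 2.7.9a and deposited raw counts per gene from featureCounts 2.0.3. The authors also deposited log2 CPM of the genes they tested, used here only to check the scaling. Transcript tables and the gene CPM table were not used, and 1 column was left out. Groups came from the labels, 1 mouse per sample, and replicate numbers follow accession order. A gene was tested where 10 or more libraries exceeded 1 CPM, and 5 ribosomal RNA genes were dropped, which gave 16168 genes. All 55 libraries entered 1 limma 3.58.1 fit (voom with sample quality weights, TMM from edgeR 4.0.16, R 4.3.3) with a mean per group, 10 in all. Stage contrasts were tested with Benjamini-Hochberg adjustment at an FDR of 0.05. Alternatives included edgeR's quasi-likelihood test, DESeq2 1.42.0, no weights, no filter, age and leaving out each mouse. The code was tested on simulated data.

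Named genes were the 6 of smallest p per direction, where none passed and clone names were left out, the 2 of smallest p in each list, the 3 per direction in the interaction, and Cnih3. Esr1, Pgr, Esr2, Cyp19a1, Grin1, Grin2c, Gria1, Gria2, Gabra2 and Gabrd were named outside that rule, after their values were seen. The comparison and the lists were chosen with earlier results of these data known. Depth was 29986468 to 63321180 counts per library in the 22 compared. One list member is not reported here.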

Additional observations from a re-analysis of the deposited data

Results flagged for a closer look

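In 8 of 100 groups of values tested, 1 mouse lay far from the rest of its group, where chance gives about 1 in 20. KO metestrus replicate 2 was low for Ubash3a (-0.040 log2 CPM, others 1.11 to 1.57) and for Rbm10 (5.72, others 5.99 to 6.07), both against the direction of the stage difference. WT estrus replicate 3 was high for Rbm10 (5.92, others 5.77 to 5.82). Dnah8 was low in KO metestrus replicate 5 (-0.41, others -0.04 to 0.09) and in KO estrus replicate 3 (-3.09, others -0.81 to 0.44). Alas2 was low in KO metestrus replicate 1 (2.40, others 3.10 to 3.38). WT estrus replicate 5, the shallowest library, had 26099 detected genes (others 28076 to 28587). KO estrus replicate 1 had 0.245% nuclear long non-coding RNA (others 0.333% to 0.384%).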

How the results depend on the processing

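Of 155 recomputed counts of called genes, 149 were 0 as reported. The exceptions were 230 genes over both genotypes, 6 in KO and 10 list members in mice of 14 weeks or more, 28 over both genotypes without the 4 young mice, 17 in WT with no filter (all 17 outside the filtered genes, with 7 to 142 counts over the 22 libraries), and 1 in WT without WT metestrus replicate 2 (Gm15927), leaving out 1 mouse giving 0 to 1. The cause was not tested. Fits without KO metestrus replicates 1 and 5, and the edgeR and unweighted fits in mice of 14 weeks or more, were added after seeing the data. The fit without the 4 young mice that kept all other groups was also added then. Of 3583 recomputed values of 97 named genes, 18 in 7 genes changed sign. Prl was 0.46 in edgeR, 0.46 in DESeq2 and 0.28 in edgeR from 14 weeks. Iyd was -0.10 in edgeR, -0.10 in DESeq2, -0.058 without weights and -0.012 without KO metestrus replicates 1 and 5. mt-Nd4l was -0.10 in edgeR and -0.10 in DESeq2, Dsp 0.011 without weights, and Cnih3 0.036 without KO metestrus replicates 1 and 5. Leaving out 1 mouse gave -0.11 to 0.012 for Cnih3, -0.00201 to 0.18 for Mbp, -0.017 to 0.093 for Iyd and -0.17 to 0.0093 for Hba-a1. It also gave stage differences of -1561130 to 1434540 total counts, -0.992 to 0.205 weeks of age and -245 to 53.1 detected genes. With mice that share a leading number in their labels treated as a replicate block (15 blocks among the 22 mice, consensus correlation -0.0025) 0 genes were called, and 1761 had an unadjusted p under 0.05. The labels do not say that this number marks a litter or batch.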

Other observations

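Gene classes of the annotation are given by their counts over both genotypes, beside 4.63% higher and 6.2% lower over all genes, and differences between classes were not tested. Of 1168 processed pseudogenes tested, 44 were higher and 6 lower in metestrus at an unadjusted p under 0.05, with a median of 0.03. Of 393 long intergenic RNAs, 8 were higher and 22 lower, and of 310 antisense RNAs, 5 were higher and 12 lower, with medians of -0.05 and -0.03. Protein-coding genes had 681 higher and 848 lower of 13482, with a median of 0.00. None of these genes passed the FDR in limma. Pseudogenes resemble their parent genes in sequence and only uniquely aligned reads were counted, so their values are uncertain.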
